A study of Mus musculus with 7 samples.

Results

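Chromatin accessibility was compared between adipose tissue macrophages of mice on an ongoing high-fat diet (HFD, n = 3 libraries) and of mice kept lean on a regular diet throughout (RD-RD, n = 2 libraries). All 5898 regions of the deposited tables entered the comparison, since each table lists the values of all libraries, and 5 of the 7 libraries of the series belong to these groups. The HFD animals were adult male C57Bl/6J mice given food of 60% lipid content over 11 weeks. The RD-RD animals were adult males of the same strain given food of 10% lipid content over 20 weeks. A further group of the study, HFD-RD (n = 2 libraries), was switched after 11 weeks from the first diet to the second, for 9 weeks, to lose weight, and serves here only to estimate the spread between libraries. Macrophages were sorted by flow cytometry, and nuclei were treated with the Tn5 transposase. Diet and time on study changed together (11 weeks for HFD, 20 weeks for RD-RD), so their effects cannot be told apart. The labels do not say which surface markers were sorted on, nor whether a library came from 1 mouse or from a pool, so p-values measure the spread between these libraries, which may be technical.

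ATAC-seq counts the places where Tn5 can insert sequencing adapters, and a region with more reads is more open. Open chromatin marks gene starts, where transcription begins, and distal elements such as enhancers, which may lie far from the gene they act on, so that the gene assigned to a distal region is a neighbour and not a proven target. Adipose tissue macrophages clear dying fat cells and take up lipid; in obesity, cells recruited from blood monocytes join the resident macrophages, and lysosomal, lipid-handling and inflammatory genes become more active in the tissue.

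Values are normalized counts, which the authors made by dividing the reads of a region by 1 size factor per library. Reads in the deposited regions numbered 2807495, 1523146 and 1566575 in HFD libraries, against 1034618 and 916247 in RD-RD libraries, and the median region held 140 to 270 reads in HFD libraries and 71 to 75 in RD-RD libraries. The authors deposited only regions that differed between some of the groups in these same libraries, so the tests below describe the deposited regions and are not independent of that selection. The source names of all 5 libraries give another diet than their titles and diet labels do, and titles and diet labels were followed. None of 8 core macrophage marker genes had a deposited region, so the labelled cell type could not be checked against its defining markers. In a bulk library, fewer cells of a type and less open chromatin per cell cannot be told apart.

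Regions over gene starts are those for which a sequence can be shown beside the measurement. The promoters below, each 300 bases from 250 before to 50 after the gene start, are from RefSeq (GRCm38.p6) and are printed 5′ to 3′ on the strand of the gene, with every CG dinucleotide in capitals. They are from gene-start regions among those with the largest increases and decreases that overlap a promoter in RefSeq, not a complete ranking, and they are shown because density of CG dinucleotides is the feature by which gene starts are commonly classed. Among the gene starts that were more open in HFD libraries, B230216N24Rik (chr1:98047744-98048043, minus strand) is an uncharacterised cDNA clone, Fabp7 (chr10:57784673-57784972, plus strand) encodes a fatty acid-binding protein and Cxcl14 (chr13:56296502-56296801, minus strand) a chemokine. Among those less open in HFD libraries, Klhl13 (chrX:23365014-23365313, minus strand) encodes an adaptor of a ubiquitin ligase, Steap4 (chr5:7960222-7960521, plus strand) a metalloreductase of adipose tissue and Cd209f (chr8:4105715-4106014, minus strand) a C-type lectin.
B230216N24Rik: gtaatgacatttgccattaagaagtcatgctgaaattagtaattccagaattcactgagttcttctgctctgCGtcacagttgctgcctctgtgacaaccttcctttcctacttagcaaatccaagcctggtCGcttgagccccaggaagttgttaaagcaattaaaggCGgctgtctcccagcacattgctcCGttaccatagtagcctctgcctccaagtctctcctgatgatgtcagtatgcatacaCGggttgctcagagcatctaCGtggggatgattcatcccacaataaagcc
Fabp7: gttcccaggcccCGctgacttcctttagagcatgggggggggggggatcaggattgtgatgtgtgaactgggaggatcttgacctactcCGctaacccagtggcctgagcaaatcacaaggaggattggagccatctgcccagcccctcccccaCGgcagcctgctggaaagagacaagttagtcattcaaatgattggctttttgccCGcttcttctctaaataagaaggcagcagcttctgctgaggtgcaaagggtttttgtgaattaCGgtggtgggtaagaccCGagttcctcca
Cxcl14: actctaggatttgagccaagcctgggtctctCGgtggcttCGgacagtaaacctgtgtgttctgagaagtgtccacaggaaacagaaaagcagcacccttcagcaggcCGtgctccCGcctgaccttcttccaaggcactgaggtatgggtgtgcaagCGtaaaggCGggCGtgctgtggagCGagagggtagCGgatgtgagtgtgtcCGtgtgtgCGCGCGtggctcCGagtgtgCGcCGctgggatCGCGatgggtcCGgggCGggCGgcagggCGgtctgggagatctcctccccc
Klhl13: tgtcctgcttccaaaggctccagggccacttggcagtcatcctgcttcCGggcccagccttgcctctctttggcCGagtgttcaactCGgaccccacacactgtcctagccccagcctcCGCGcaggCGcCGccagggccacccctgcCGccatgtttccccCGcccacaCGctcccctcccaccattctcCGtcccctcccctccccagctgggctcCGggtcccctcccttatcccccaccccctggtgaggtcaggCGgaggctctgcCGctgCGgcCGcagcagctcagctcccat
Steap4: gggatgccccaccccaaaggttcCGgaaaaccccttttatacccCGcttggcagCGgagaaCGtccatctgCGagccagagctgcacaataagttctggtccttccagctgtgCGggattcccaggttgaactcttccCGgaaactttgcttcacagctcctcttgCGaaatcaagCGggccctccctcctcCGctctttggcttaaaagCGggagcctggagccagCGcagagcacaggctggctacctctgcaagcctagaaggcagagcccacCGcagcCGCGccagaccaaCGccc
Cd209f: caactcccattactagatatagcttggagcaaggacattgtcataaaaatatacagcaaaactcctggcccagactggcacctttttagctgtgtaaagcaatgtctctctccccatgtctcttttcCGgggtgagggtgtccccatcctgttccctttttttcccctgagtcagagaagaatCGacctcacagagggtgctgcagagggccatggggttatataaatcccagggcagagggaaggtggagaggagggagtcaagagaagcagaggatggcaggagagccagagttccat
The B230216N24Rik and Fabp7 promoters hold 6 CG dinucleotides each and the Cxcl14 promoter 22, against 16 each in the Klhl13 and Steap4 promoters and 2 in the Cd209f promoter.

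Most deposited regions were more open in HFD than in RD-RD macrophages. With limma on log2(normalized count + 1) and Benjamini–Hochberg adjustment over the 5898 regions, 3490 regions (59.2%) were higher in HFD, 1710 (29.0%) were lower and 698 did not pass at 0.05. Calls with a log2 change of at least 1 numbered 2177 higher (36.9% of all regions) and 707 lower. The log2 change, HFD minus RD-RD, had a median of 0.75 over all regions, of 1.08 where the call was higher and of -0.92 where it was lower, and the median SE was 0.21. The upper tail was longer: 91 regions rose and 10 fell by at least 2 on the log2 scale, and 13 rose and 1 fell by at least 2.5. All HFD libraries lay above both RD-RD libraries in 3600 regions (61.0%) and below both in 1866 (31.6%), which is 92.7% together, and the groups overlapped in 432. Of the called regions, 3449 of 3490 higher and 1704 of 1710 lower ones were separate in this way. Separate groups, stated below for single regions, are thus common to nearly all calls and add little to a call. The split between higher and lower depends on the scaling. With TMM factors, which centre the bulk of the deposited regions near no change, the median moved by -0.78 and 830 regions were higher and 2095 lower, so that 28.4% of the calls were higher, against 67.1% with the size factors of the authors. Positions of gene groups relative to the median of all regions are therefore given beside their counts.

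The largest increase, 3.17 on the log2 scale, was at chr4:57735140-57735758, whose assigned gene has no symbol in the deposited tables. The 12 named increases and 12 named decreases were taken among called regions whose groups do not overlap, so their separation follows from the choice. None of these 12 increases, all at genes with a symbol, covered a gene start. The region chr14:66509330-66510464, upstream of Adra1a, the gene of an adrenergic receptor, had 168, 138 and 194 normalized counts in HFD libraries, against 16.2 and 25.9 in RD-RD libraries. Its lowest HFD library was several times its highest RD-RD library, and the log2 change was 2.95 ± 0.24 (SE, limma, adjusted p = 9.34e-05).
A region inside Kdm4b, which encodes a histone demethylase, had 160.3, 117 and 224 normalized counts in HFD libraries and 12.5 and 34.6 in RD-RD libraries. The groups did not overlap, and the RD-RD libraries stood apart from each other (log2 change 2.89 ± 0.37, adjusted p = 0.00017). The region upstream of Nron, a long noncoding RNA known as a repressor of the transcription factor NFAT, had 460.2, 349.7 and 539 normalized counts in HFD libraries, against 57.3 and 72.0 in RD-RD libraries, the highest level among the 12 named increases.

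Regions near Kcnk12, a potassium channel gene, Rala, a small GTPase gene, Npas2, the gene of a circadian transcription factor, and Cpe, which encodes carboxypeptidase E, rose by 2.75, 2.59, 2.54 and 2.48 on the log2 scale. The region inside Rala had 69.1, 60.1 and 94.6 normalized counts in HFD libraries, against 4.98 and 24.5 in RD-RD libraries. There the RD-RD libraries lay far apart and the SE was the widest among the 12 (2.59 ± 0.46); the change was 1.54 without RD-RD replicate 1 and 3.63 without RD-RD replicate 2. The region upstream of Fzd7, a receptor of Wnt ligands, had 163, 129 and 190.0 normalized counts in HFD libraries and 23.7 and 28.8 in RD-RD libraries, with both groups tight and no overlap (2.56 ± 0.22). The remaining increases of the rule were assigned to Apbb2, Gm17767, Kbtbd12 and 1700020N01Rik, between 2.55 and 2.71. At Kbtbd12, where the RD-RD libraries also lay apart, the change was 1.66 without RD-RD replicate 1.

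The largest decreases included gene starts. Over the start of Klhl13 (chrX:23364496-23365734), whose promoter is shown above, HFD libraries had 65.5, 68.3 and 78.2 normalized counts, against 455 and 377 in RD-RD libraries. Every HFD library was below every RD-RD library by a wide margin, and the log2 change was -2.54 ± 0.19 (adjusted p = 9.34e-05). Over the start of Steap4 the HFD libraries had 93.9, 49.4 and 75.7 normalized counts and the RD-RD libraries 304 and 269, again without overlap (-2.004 ± 0.25).
Sema6a, the gene of a transmembrane semaphorin, fell both at its start and at a downstream region. The start had 116, 90.5 and 94.6 normalized counts in HFD libraries, against 392 and 387 in RD-RD libraries (-1.96 ± 0.19). The downstream region had 42.5, 57.6 and 43.0 in HFD libraries, against 233 and 197 in RD-RD libraries (-2.16 ± 0.20). In both, the 2 groups were each tight and separate. Regions assigned to Snap25, the gene of a membrane fusion protein of synapses, Kctd8, the gene of an auxiliary subunit of GABA-B receptors, and Ccng1, the cyclin G1 gene, fell by 2.06, 2.02 and 1.99 on the log2 scale. The other decreases of the rule, between -2.28 and -1.97, were assigned to 1700123O21Rik, F630206G17Rik, 4933400L20Rik, Gm8979, Dmac1 and Gm21379. The regions of 1700123O21Rik, Gm21379, Kctd8, F630206G17Rik and Dmac1 lay 1175, 830, 607, 262 and 122 kb from the gene start. Those of 4933400L20Rik and Gm8979 lay 26.8 and 52.5 kb from it.

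**Figure D1:**
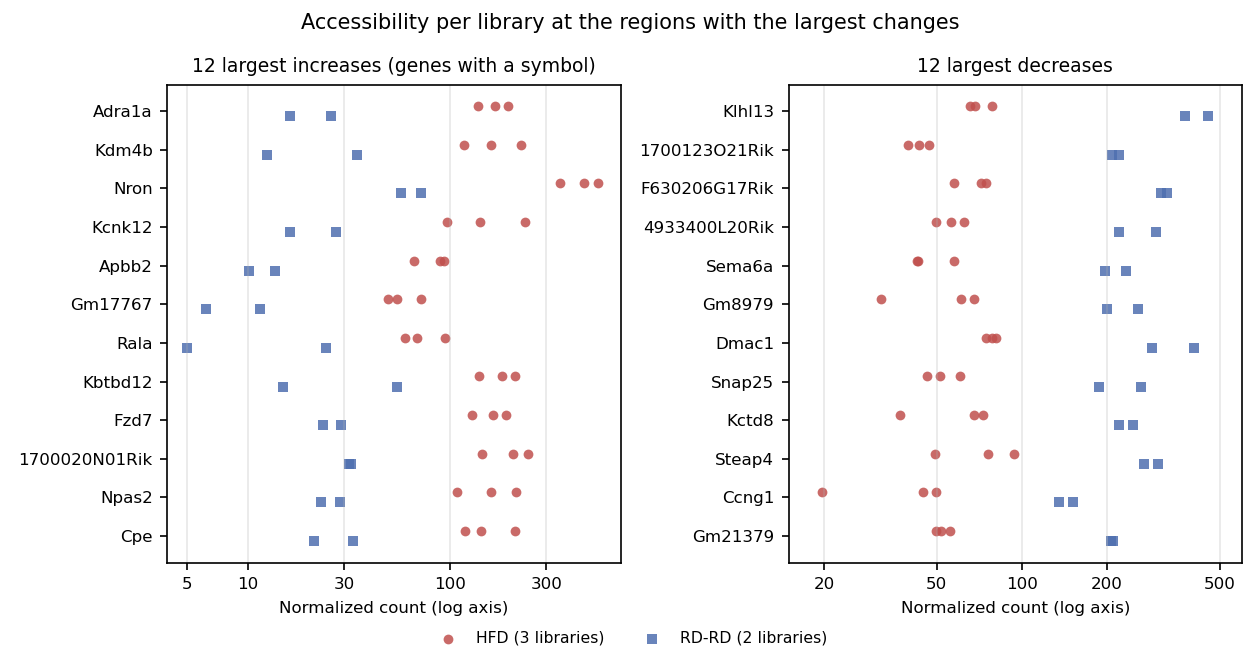
Normalized counts per library (log axis) of the 12 largest increases (left panel) and 12 largest decreases (right panel) at genes with a symbol, 1 region per gene, which leaves out the region with the increase of 3.17, with HFD libraries as red circles and RD-RD libraries as blue squares. Only called regions whose groups do not overlap were eligible, so the separation of circles and squares in each row follows from the choice. The spread between RD-RD libraries is widest at Rala and Kbtbd12.

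Regions over and near gene starts were mostly lower. Among 309 regions over a gene start, 25 (8.09%) were higher and 236 (76.4%) lower in HFD, against 59.2% and 29.0% of all regions. Their median log2 change was -0.77, which is 1.52 below that of all regions, and with TMM factors 1 was higher and 279 lower. Regions inside genes (64.9% of 2087 higher, 23.1% lower) and upstream (62.6% of 2380 higher, 25.9% lower) stood on the other side, and downstream regions were in between (55.1% of 1082 higher, 33.3% lower). Over gene ends, 20 of 27 regions were higher and 5 lower, and all 8 regions with no assigned gene were lower. By distance to the gene start, 10.2% of 325 regions within 1 kb were higher and 74.8% lower, while 66.3% of 3435 regions at 10 to 100 kb were higher and 22.5% lower. Beyond 100 kb the lower share rose again to 37.2% of 956 regions, and among regions over 100 kb downstream 143 were higher and 137 lower. Close to a gene start, most regions that do not cover it were lower too: of 29 regions within 1 kb upstream, 10 were higher and 19 lower, and of 40 inside the gene within 1 kb, 4 were higher and 28 lower.

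Gene starts with a higher signal in HFD included genes of fatty acid binding, lysosomes and secreted factors. Fabp4, a fatty acid-binding protein gene of fat cells and macrophages, had 688, 719.9 and 820.2 normalized counts at its start in HFD libraries, against 309 and 369 in RD-RD libraries. The lowest HFD library was well above the higher RD-RD library (1.13 ± 0.19, adjusted p = 0.000426). The start of Fabp7 (promoter above) had 149, 149.7 and 190.0 normalized counts in HFD libraries and 71.0 and 74.9 in RD-RD libraries, with no overlap (1.14 ± 0.21).
The start of Atp6v0d2, a subunit of the proton pump of lysosomes, had 828, 676 and 936 normalized counts in HFD libraries, against 315 and 395 in RD-RD libraries (1.19 ± 0.21). The start of Ctsk, which encodes the protease cathepsin K, had 1409, 1270.4 and 1576 in HFD libraries, against 793 and 824 in RD-RD libraries (0.80 ± 0.18). The start of Gpnmb, a glycoprotein gene of lysosomes, had 1172, 1069.6 and 1437 in HFD libraries, against 629 and 634 in RD-RD libraries (0.95 ± 0.19). All 3 starts were separate between the groups, with RD-RD libraries close to each other at Ctsk and Gpnmb.
The starts of Angpt2, which encodes a secreted ligand that destabilises blood vessels, and of Cxcl14 also rose, by 1.38 and 1.14. HFD replicate 3 stood above the other HFD libraries at Angpt2 (196, 174 and 366 normalized counts in HFD libraries, 87.2 and 89.3 in RD-RD libraries). The strongest increase at a gene start was B230216N24Rik, with 177, 118 and 190.0 normalized counts in HFD libraries and 43.6 and 30.2 in RD-RD libraries (2.10 ± 0.27), and it was the sole gene start still called higher with TMM factors. The starts of Siglec15, a sialic acid-binding receptor gene of myeloid cells, and of Siglech, its relative of plasmacytoid dendritic cells, moved in opposite directions, with log2 changes of 1.04 and -1.46.

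Gene starts with a lower signal in HFD included immune receptors, transcription factors and signalling genes. The start of Cd209f had 53.3, 59.2 and 53.3 normalized counts in HFD libraries, against 214 and 215 in RD-RD libraries (-1.94 ± 0.24). The start of Timd4, which encodes a phosphatidylserine receptor of tissue-resident macrophages, had 45.2, 46.1 and 53.3 in HFD libraries, against 168 and 129.6 in RD-RD libraries (-1.60 ± 0.31). In both, all HFD libraries lay close together and far below the RD-RD libraries. Klf15, a transcription factor gene of metabolic tissues, had 157, 158 and 201 normalized counts at its start in HFD libraries, against 503 and 576 in RD-RD libraries (-1.65 ± 0.19), and Pkia, an inhibitor of protein kinase A, had 86.3, 73.2 and 80.8 in HFD libraries, against 310.2 and 255 in RD-RD libraries (-1.80 ± 0.20). The groups were separate at both starts. Starts of developmental genes fell as well, with -1.58 at Tbx20, a T-box factor of the heart, -1.54 at Snai2, a factor of epithelial to mesenchymal transition, -1.52 at Fgf5, a fibroblast growth factor gene, and -1.51 at Fzd8, a Wnt receptor gene.

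The composition of the promoters is given as a description, without a test. For 211 of the 309 gene-start regions RefSeq held an overlapping promoter. At least 10 CG dinucleotides were found in 7 of 13 promoters of higher gene starts (53.8%), in 136 of 164 of lower gene starts (82.9%) and in 30 of 34 of gene starts that did not pass (88.2%), against 43.9% of the promoters of 27025 genes taken 1 per gene. The median number of CG dinucleotides was nearly alike in the higher and lower sets, at 22 and 20, against 27 where the gene start did not pass and 7 over all genes. The letters GGGCGG, which KLF and SP factors can bind, contain a CG dinucleotide themselves. They stood on either strand in 4 of the 13 higher and 115 of the 164 lower promoters (30.8% and 70.1%). They also stood in 27 of the 34 promoters of gene starts that did not pass (79.4%). The share was 69.2% over all 211 matched gene starts and 35.9% of all promoters. The letters TGANTCA, which AP-1 factors can bind, stood in 2 of the 13 higher and 7 of the 164 lower promoters (15.4% and 4.27%). They stood in 0 of the 34 that did not pass and in 7.93% of all promoters. The promoters of B230216N24Rik and Cd209f are among the matches. Letters of other factors were searched as well. Those of MiT/TFE, PU.1 and CRE-binding factors stood in 0 of the 13 higher promoters and in 7, 4 and 4 of the 164 lower ones (4.27%, 2.44% and 2.44%). The shares of all promoters were 3.84%, 3.28% and 1.88%. Those of IRF and CTCF factors stood in 1 higher promoter each and in 2 and 3 lower ones, against 3.49% and 1.32% of all promoters. Such matches describe the letters in these windows and do not show that a factor bound. The deposited gene starts were selected for a difference, so their shares need not hold for gene starts in general.

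**Figure D2:**
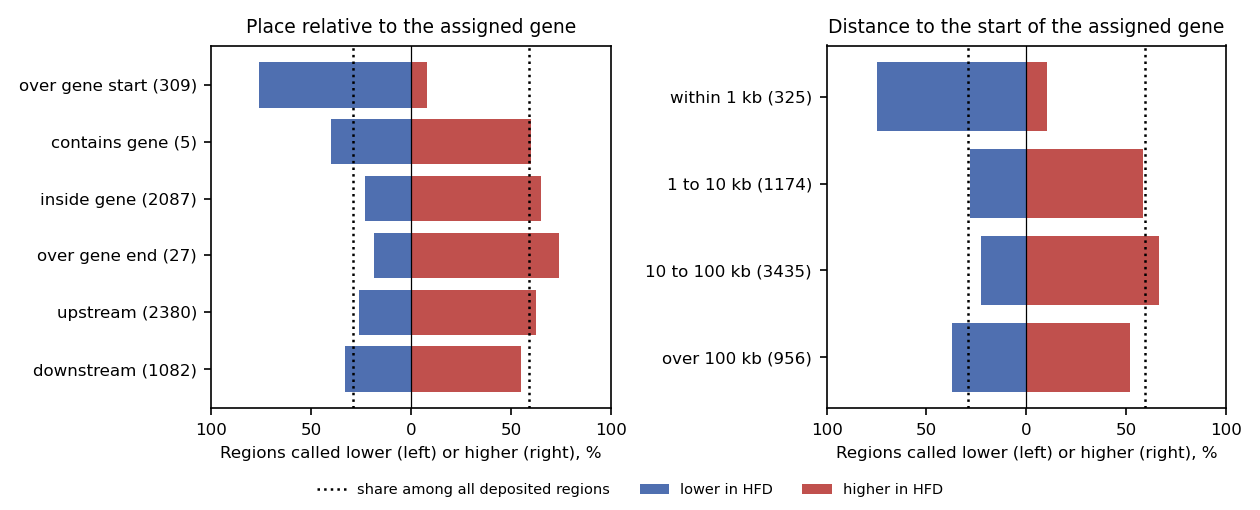
Share of regions called higher (red, to the right) or lower (blue, to the left) in HFD against RD-RD, by place relative to the assigned gene (left panel) and by distance to its start (right panel), with the number of regions in parentheses and dotted lines at the shares among all deposited regions. Regions over gene starts (8.09% higher, 76.4% lower) and within 1 kb (10.2% and 74.8%) are the classes shown in which most regions are lower; the 8 regions with no assigned gene are not drawn.

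Neighbouring regions moved together. Among pairs of adjacent called regions at most 1 kb apart, 204 of 206 (99%) had the same direction, and 355 of 358 at 1 to 5 kb. The share was 84.8% of 1073 pairs at 20 to 100 kb, 66.3% of 1414 at 100 to 500 kb and 50.6% of 929 pairs over 500 kb apart, where the shares of higher and lower calls alone would give 55.9%. Of 976 genes with several called regions, 621 had only higher, 246 only lower and 109 both. In 55 stretches of at least 5 regions with gaps of at most 25 kb, 49 held calls in the higher direction alone and 6 in the lower direction alone. Regions of 1 gene or stretch are thus not separate observations.

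The loci named for many regions without a lower one were 4933427D06Rik, Abhd17c, Lhfpl2, Apbb2, Rptoros and Camk2d. All 9 regions of Apbb2, the gene of an adaptor that binds the amyloid precursor protein, rose, by 1.10 to 2.71 on the log2 scale over 162 kb of chromosome 5. The region at chr5:66603165-66604614 had 604, 508 and 682 normalized counts in HFD libraries, against 214 and 269 in RD-RD libraries, while the most changed one (chr5:66480777-66481286) had 89.4, 66.6 and 93.7 in HFD libraries, against 13.7 and 10.1 in RD-RD libraries. The groups were separate at both. All 10 regions upstream of Abhd17c, a depalmitoylase gene, rose by 0.56 to 2.28, and with TMM factors 7 were called and the weakest was at -0.23. That weakest region was also not called without HFD replicate 1 (0.499), without HFD replicate 3 (0.47) or without RD-RD replicate 1 (0.37). At chr7:84195764-84197882 the HFD libraries had 1384, 1252 and 1440.0 normalized counts and the RD-RD libraries 429.7 and 533, without overlap (1.501 ± 0.20).
All 9 regions of Rptoros, an antisense transcript at the gene of the mTOR partner Raptor, rose by 1.18 to 2.20, and all 11 of 4933427D06Rik, an uncharacterised cDNA clone, by 0.83 to 1.63. At Lhfpl2, a tetraspan membrane protein gene, 10 of 12 regions rose, and with its neighbour Scamp1 it formed the longest stretch, 14 regions of which 13 were higher. At Camk2d, which encodes a subunit of calcium and calmodulin-dependent kinase, 9 of 10 rose. With TMM factors 8 of the Apbb2, 5 of the Rptoros, 4 of the 4933427D06Rik and 2 of the Lhfpl2 regions were called higher and none at Camk2d, where the strongest region was at 0.47.
Other stretches that were higher throughout held Dusp5, the gene of a phosphatase that inactivates MAP kinases, and Mirt1 (10 regions, 0.66 to 1.81), Gpc1, a cell surface proteoglycan gene, and Otos (9 regions, 0.87 to 1.76), and Gpnmb with 4930563H07Rik (8 regions, 0.95 to 1.86). In stretches of 6 regions each, those upstream of Adra1a rose by 1.10 to 2.95, those of Tmem163, a zinc transporter gene, by 1.23 to 2.32 and those at Hmga2, the gene of an architectural chromatin protein, and 4921513I03Rik by 1.48 to 1.98.

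The loci named for several lower regions without a higher one were Celf4, P3h2, Zfy1, Sp8, Mnd1-ps and Dpysl3. All 10 regions of Celf4, a splicing factor gene of neurons on chromosome 18, fell, with log2 changes of -1.96 to -0.71 over 448 kb. The most changed region (chr18:25590378-25591392) had 147, 152 and 138 normalized counts in HFD libraries, against 556 and 589 in RD-RD libraries. HFD libraries lay within 1 narrow band and RD-RD libraries in another, several times higher (-1.96 ± 0.22). All 8 regions of P3h2, a prolyl hydroxylase gene of collagen processing, fell (-1.45 to -0.68), including its start, with 561, 571 and 485 normalized counts in HFD libraries, against 1153 and 1058 in RD-RD libraries (-1.04 ± 0.18). The groups were separate there.
All 6 regions near Sp8, a zinc finger factor of limb development, fell (-1.02 to -0.59), as did all 5 in a stretch at Dlx5 and Dlx6, homeobox genes of skeleton and forebrain (-1.33 to -0.73), and the 6 of Dpysl3, a gene of axon growth (-0.95 to -0.49). Of 7 regions 189 to 495 kb upstream of Mnd1-ps, a pseudogene, 6 fell. All 6 regions assigned to Zfy1, a zinc finger gene of chromosome Y, fell (-1.19 to -0.99). They lay 534 to 657 kb downstream of its start. Without RD-RD replicate 1, 2 of the Dpysl3, 3 of the Mnd1-ps and 4 of the Sp8 regions were still called. The other lower stretches lay at Eif4enif1 and Pisd-ps1 (4 of 5 lower), 2610203C22Rik and Vxn (5 of 5), Slc39a12, a zinc transporter gene (5 of 5), and Retnla, Retnlb and Retnlg, the genes of resistin-like secreted proteins (3 of 5).

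At some genes the direction changed along the locus. In Magi2, the gene of a synaptic scaffold protein, the 2 regions nearer its start fell, by 1.15 and 1.10 on the log2 scale, and the 3 farther in rose by 1.05 to 1.499. The region at chr5:19518119-19518819 had 61.0, 64.2 and 86.8 normalized counts in HFD libraries, against 172 and 143 in RD-RD libraries, and that at chr5:19970083-19970619 had 107, 110.3 and 118 in HFD libraries, against 36.1 and 41.8 in RD-RD libraries. Neither overlapped. Around Adgrl2, an adhesion receptor gene, 7 regions within and upstream rose and 2 far downstream fell. At Kdr, which encodes a receptor of vascular endothelial growth factor, the upstream region at chr5:75990219-75990820 had 257, 254 and 284 normalized counts in HFD libraries, against 99.6 and 127 in RD-RD libraries (1.23 ± 0.19). Of its downstream regions 1 rose, by 1.16 on the log2 scale, and 2 fell, by 0.73 and 0.90. Without RD-RD replicate 1, 1 lower region was still called at each of Adgrl2 and Kdr. At 2210417A02Rik, an uncharacterised cDNA clone, 3 upstream regions rose and 2 downstream regions fell. With TMM factors 1 region was called higher and 2 lower at Magi2, 4 higher and 3 lower at Adgrl2, and 2 lower but none higher at both Kdr and 2210417A02Rik.

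**Figure D3:**
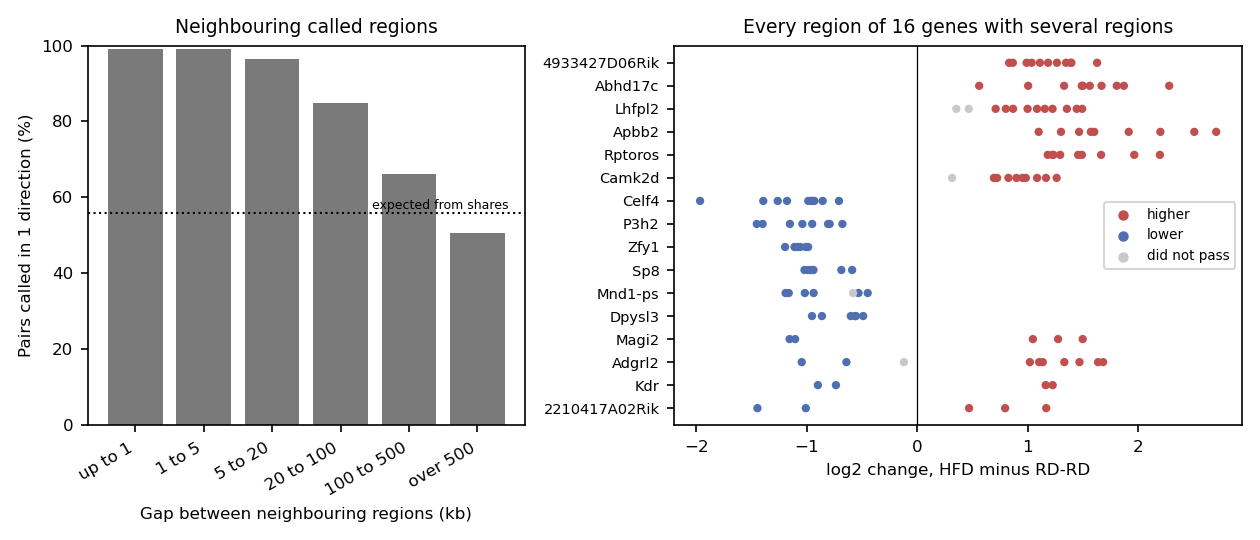
Left panel, share of adjacent called regions with the same direction by the gap between them, with a dotted line at 55.9%, the share that follows from the calls alone; right panel, log2 change (HFD minus RD-RD) of every region of 16 genes, coloured red where higher, blue where lower and grey where it did not pass. The share is 99% up to 1 kb and 50.6% over 500 kb, and the last 4 genes hold regions on both sides of 0.

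Among the 25 gene families grouped by symbol, lysosomal genes had the largest higher share with the size factors of the authors. Of 32 regions of lysosomal enzymes and membrane proteins at 18 genes, 28 were higher and 3 lower (87.5% and 9.38%, against 59.2% and 29.0% of all regions). Their median log2 change was 1.06, 0.30 above that of all regions. With TMM factors 7 were higher and 3 lower, against 830 and 2095 of all 5898 regions. That higher share of 21.9% was just under the 22.7% of G protein-coupled receptors and of MAP kinases and phosphatases. Of G protein-coupled receptor regions 20 were then higher and 38 lower, and of MAP kinases and phosphatases 17 and 18. The family as grouped also counts Mitf, the gene of a transcription factor that drives lysosome genes, which is neither an enzyme nor a membrane protein. A region inside Mitf had 99.4, 99.6 and 78.2 normalized counts in HFD libraries, against 13.7 and 25.9 in RD-RD libraries. The HFD libraries were all far above (2.22 ± 0.25). Lipa, the gene of the lysosomal acid lipase, had 116, 108 and 144 normalized counts in HFD libraries at a region within the gene, against 42.4 and 28.8 in RD-RD libraries, also without overlap (1.77 ± 0.23). Those that fell included regions near Atp6v1h, another subunit of the proton pump, at -1.11, and Ctso, a cathepsin gene, at -1.10.

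Families of signalling, ubiquitin ligases, cytoskeleton and lipid handling had higher shares somewhat above that of all regions. Of 75 regions of MAP kinases and protein phosphatases, 53 were higher and 14 lower (70.7% and 18.7%), with a median 0.27 above that of all regions; with TMM factors 17 were higher and 18 lower. Dusp1, which encodes a phosphatase that ends MAP kinase signals, had 997, 886 and 1051 normalized counts upstream of the gene in HFD libraries, against 252 and 369 in RD-RD libraries. All HFD libraries were far above the higher RD-RD library (1.68 ± 0.21). A region 57.9 kb upstream of Dusp26 went the other way, with 175, 152 and 159.9 normalized counts in HFD libraries, against 493 and 582 in RD-RD libraries (-1.72 ± 0.18).
Of 136 regions of small GTPases and their regulators 91 were higher and 29 lower, of 108 of ubiquitin ligases and their partners 76 and 23, of 73 of cytoskeletal and motor proteins 51 and 16, of 59 of cyclic nucleotide and kinase A and C signalling 40 and 14, and of 69 of lipid handling 48 and 17 (11 lower without RD-RD replicate 2). Between 66.9% and 70.4% of each were higher, against 59.2% of all regions. Their medians were 0.06 to 0.11 above that of all regions. With TMM factors more of each were lower than higher, as were all regions together (830 higher and 2095 lower). Dock4, an activator of the GTPase Rac, had 611, 453 and 738 normalized counts inside the gene in HFD libraries, against 141 and 141 in RD-RD libraries, where both RD-RD libraries coincided (2.05 ± 0.22). Wwp2, a ubiquitin ligase gene, had 232, 201 and 345 in HFD libraries, against 41.1 and 53.3 in RD-RD libraries (2.40 ± 0.24). Lrp2, the gene of a lipoprotein receptor, had 58.3, 83.1 and 92.8 in HFD libraries, against 28.6 and 14.4 in RD-RD libraries (1.86 ± 0.28), and Apol10b, an apolipoprotein L gene, fell with 36.6, 30.4 and 38.7 in HFD libraries, against 98.4 and 122 in RD-RD libraries (-1.62 ± 0.21). The groups were separate at these 4 regions.

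Cytokine genes and signal-dependent factors were split much as all regions were. Of 77 regions of cytokines, chemokines and their receptors 49 were higher and 23 lower, and of 75 of signal-dependent and lineage transcription factors 46 and 23. Their medians stood at 0.07 and -0.11 relative to that of all regions. With TMM factors the counts were 8 and 25 of the first family and 5 and 26 of the second, against 830 and 2095 of all 5898 regions. A region downstream of Il12b, the gene of a subunit of interleukin 12, had 123, 87.2 and 111 normalized counts in HFD libraries, against 22.4 and 38.9 in RD-RD libraries. A region upstream of Cxcl13, which encodes a chemokine that attracts B cells, had 169, 149 and 147 in HFD libraries, against 640.2 and 528 in RD-RD libraries. They moved in opposite directions with no overlap, by 1.81 ± 0.28 at Il12b and -1.90 ± 0.21 at Cxcl13. A region 142 kb upstream of Il7, a lymphocyte growth factor gene, and a region inside Ccl1, a chemokine gene, fell as well, at -1.50 and -1.45. A region 81.7 kb downstream of the start of Socs1, the gene of an inhibitor of cytokine signalling, rose by 1.68 (2.41 without RD-RD replicate 1, 0.96 without RD-RD replicate 2). Among the factors, Prdm1, a transcriptional repressor, and Nfatc2, which responds to calcium, rose by 1.55 and 1.61. A region 252 kb upstream of Runx1t1, a corepressor gene, and a region inside Etv6, an ETS factor gene, were at -1.53 and -1.28.

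Transcription factors of body patterning were mostly lower. Of 75 regions of homeobox, SOX, FOX, T-box and PAX factors at 47 genes, 19 were higher and 53 lower (25.3% and 70.7%), with a median 1.47 below that of all regions. Away from gene starts 38 of 60 were lower (63.3%, against 26.4% of all regions away from gene starts), and with TMM factors 1 of the 75 was higher and 55 lower. Without RD-RD replicate 1, 34 of the 75 were lower. Pax3, a factor of neural crest and muscle, had 93.0, 95.4 and 92.8 normalized counts at its start in HFD libraries, against 240.4 and 251 in RD-RD libraries. The HFD libraries were nearly equal and the RD-RD libraries nearly equal at a higher level (-1.38 ± 0.18). A region assigned to Foxk1, a forkhead factor, lay 327 kb upstream of its start. It had 67.3, 49.4 and 79.1 in HFD libraries, against 249 and 192 in RD-RD libraries (-1.75 ± 0.23). A region 66.2 kb downstream of the start of Tbx4, a limb factor, rose with 358, 339.8 and 388 in HFD libraries, against 164 and 147 in RD-RD libraries (1.21 ± 0.19).
Of 14 regions of nuclear receptors at 9 genes, 11 were lower and 1 higher, and with TMM factors 13 were lower and none higher. Their median stood at -1.55 relative to that of all regions. A region inside Rarb, the gene of a retinoic acid receptor, had 70.0, 55.1 and 68.8 normalized counts in HFD libraries, against 184 and 181 in RD-RD libraries (-1.49 ± 0.19), and Nr2f1, an orphan receptor gene, was at -1.50. The start of Nr3c2, the mineralocorticoid receptor gene, had 1566, 1627 and 1639 normalized counts in HFD libraries, against 3366 and 3178 in RD-RD libraries (-1.02 ± 0.17). All were separate between the groups. The single higher region was upstream of Nr3c1, the glucocorticoid receptor gene, with 47.9, 57.6 and 68.8 in HFD libraries, against 37.4 and 31.7 in RD-RD libraries (0.72 ± 0.22); it was not called without RD-RD replicate 2 (0.61), and with TMM factors it was at -0.05.

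Olfactory receptors also had a large lower share, and families of guidance and adhesion followed. Of 27 regions of olfactory, vomeronasal and taste receptors, genes that lie in dense clusters, 6 were higher and 21 lower (22.2% and 77.8%). Of 35 regions of semaphorins, plexins, slits, netrins and ephrins 14 were higher and 17 lower. The medians of these families stood at -1.63 and -1.48 relative to that of all regions. A region inside Plxna2, a semaphorin receptor gene, had 366, 274 and 426 normalized counts in HFD libraries, against 82.2 and 83.5 in RD-RD libraries (2.06 ± 0.21). A region 209 kb downstream of the start of Efnb2, the ephrin B2 gene, had 117, 126 and 80.8 in HFD libraries, against 330.1 and 376 in RD-RD libraries (-1.72 ± 0.22). The groups did not overlap at either. Of 26 regions of cadherins and synaptic adhesion proteins 13 were higher and 12 lower, of 58 of integrins, matrix proteins and matrix proteases 29 and 24, of 43 of ion channels 21 and 17, and of 21 of C-type lectin, Fc, Siglec and CD300 receptors 10 and 9. In that order, their medians stood at -0.26, -0.23, -0.30 and -0.25 relative to that of all regions. With TMM factors each of these 6 families, from olfactory receptors on, and each counted in the next sentences, had more lower than higher calls. So had all 5898 regions together (830 higher and 2095 lower). The counts with TMM factors ranged widely, such as 1 and 21 of olfactory, 3 and 20 of semaphorin and 20 and 38 of G protein-coupled receptor regions.
Further groups lay near the shares of all regions, with 54 higher and 26 lower of 90 regions of growth factors and morphogens, 64 and 35 of 118 of solute carriers, 47 and 30 of 88 of G protein-coupled receptors, and 140 and 66 of 236 of microRNA genes. Zfp zinc finger genes had 42 and 20 of 72, chromatin regulators 23 and 10 of 42, glycosyltransferases and sulfotransferases 34 and 21 of 61, and predicted genes and cDNA clones 430 and 251 of 763. The medians of these further groups stood between -0.12 (chromatin regulators) and 0.13 (growth factors and morphogens) relative to that of all regions. Bmpr1b, a receptor of bone morphogenetic proteins, had 125, 93.0 and 172 normalized counts inside the gene in HFD libraries, against 27.4 and 24.5 in RD-RD libraries (2.24 ± 0.28), and Galnt15, an enzyme that starts O-linked sugar chains, had 718, 560.3 and 911 in HFD libraries, against 137 and 132 in RD-RD libraries (2.40 ± 0.23).

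**Figure D4:**
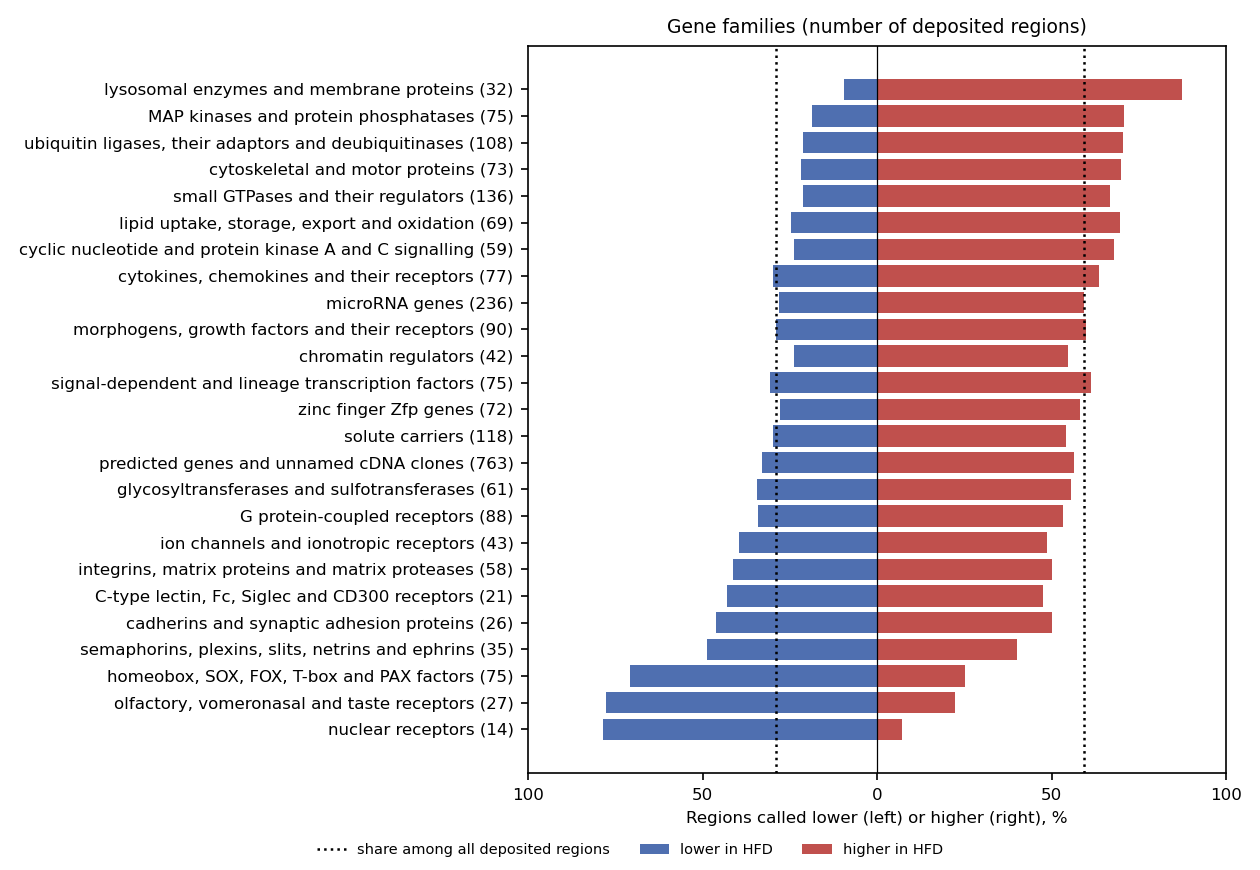
Share of regions called higher (red, to the right) or lower (blue, to the left) in HFD against RD-RD in 25 gene families, ordered by the difference of the shares, with the number of regions in parentheses and dotted lines at the shares among all deposited regions. Lysosomal genes, with Mitf counted among them (87.5% higher), stand at the top. Patterning factors (70.7% lower), olfactory and vomeronasal receptors (77.8%) and nuclear receptors (78.6%) stand at the bottom.

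Reads at contigs and chromosome beginnings made up a smaller share in HFD. No region on unplaced or unlocalised contigs, in the first 3.2 Mb of a chromosome or on chromosome Y was higher, while 9 of 10, 17 of 19 and 8 of 9 of them were lower. Contigs and chromosome beginnings held 11.3%, 14.6% and 11.0% of the region reads in HFD libraries, against 30.6% and 29.8% in RD-RD libraries. A single region assigned to Mir101c, next to the centromeric end of chromosome 9, held 5.49%, 7.26% and 5.51% in HFD libraries, against 15.02% and 14.56% in RD-RD libraries. The groups were separate in each of these shares. These boundaries were drawn after the values were seen, reads in such places may map to several copies, and the part that mapping plays in the difference was not tested. Of the reads outside these places, regions over gene starts held 7.64%, 8.07% and 7.56% in HFD libraries, against 15.8% and 14.2% in RD-RD libraries. Chromosome 18 had the largest lower share of the autosomes away from gene starts, 40.3% of 206 regions, against 21.8% to 29.8% on the other autosomes, with the regions of Celf4, Dpysl3, Sema6a and Kctd16, a gene of GABA-B receptor subunits, all lower.

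**Figure D5:**
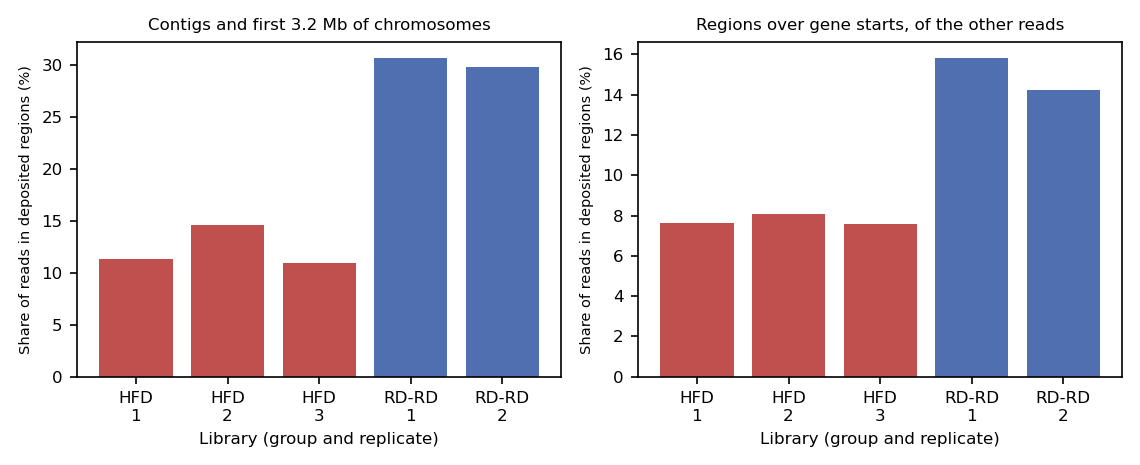
Share of the reads in deposited regions that fell on contigs and chromosome beginnings (left panel), and share of the remaining reads that fell on regions over gene starts (right panel), 1 bar per library, HFD in red and RD-RD in blue. Both shares are lower in every HFD library (at most 14.6% and 8.07%) than in both RD-RD libraries (at least 29.8% and 14.2%).

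Libraries of 1 group were closer to each other than to the other group. Across regions, which are not independent and were selected for differing, Pearson's r on the log2 scale was 0.950 to 0.972 between HFD libraries and 0.941 between RD-RD libraries, against 0.586 to 0.697 between an HFD and an RD-RD library. The median range within a region was 0.34 among HFD libraries and 0.27 among RD-RD libraries on the log2 scale. Among the 3490 higher regions, HFD replicate 3 was the highest HFD library in 61.8% and HFD replicate 2 the lowest in 56.8%, with median log2 differences from the RD-RD mean of 1.07, 1.01 and 1.19 for HFD replicates 1, 2 and 3. RD-RD replicate 2 was the higher of its group in 69.5% of them. The median log2 difference of these regions from the HFD mean was -1.18 in RD-RD replicate 1 and -0.97 in RD-RD replicate 2. For 2918 regions the authors deposited a fold change of this comparison, 2205 higher and 713 lower. Limma called all 2918 in the same direction, and the log2 changes differed by a median of 0.016. The authors had kept these regions for a log2 change of at least 1.00 in size on the same counts. Which comparison they belong to was itself read from the group means. The agreement was therefore largely set in advance and is no separate support.

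Markers of other cell types that a sort can contain were sparse among the deposited regions. Of 5 neutrophil markers 1 had a region, at Csf3r, the receptor of a granulocyte growth factor, which fell (-0.65). The summed level over 3 dendritic cell markers (Cd209a, Siglech, Xcr1) was 331 to 371 normalized counts in HFD libraries, against 768 to 861 in RD-RD libraries, with 2 lower and 1 that did not pass. That over 4 endothelial markers (Cdh5, Erg, Kdr, Pecam1; 7 regions, 3 higher and 4 lower) was 863 to 913 in HFD libraries, against 1123 to 1226 in RD-RD libraries. T cell markers (Cd4, Lef1) had 3 regions, of which 1 was higher, 1 lower and 1 did not pass. Their sums, 592 to 658 in HFD libraries and 521 to 603 in RD-RD libraries, overlapped. B cell markers (Ebf1, Ms4a1) had 4 regions, of which 1 was higher, 2 lower and 1 did not pass. These summed to 499 to 564 in HFD libraries, against 598 to 700 in RD-RD libraries. No NK cell, mast cell, fibroblast or adipocyte marker had a region. Siglech is both a dendritic cell marker and 1 of the gene starts described above, and the part of cell composition in these results was not tested.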

How the data were processed

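ATAC-seq of sorted adipose tissue macrophages was analysed from 7 deposited tables, stacked into 5898 regions. Per the submitters' processing notes, the build was GRCm38 and the tools included MACS2 2.0.10, DESeq2, Picard and deepTools, with no role named; aligner and filters: not given in the sources used here. The deposited signal is the authors' normalized count, a read count over 1 size factor per library (all values were whole multiples of 1 step within 1e-06). The authors' log2 fold change with its SE, their test score, p-values and distances in base pairs stand in the same tables, per the file headers, each for 1 comparison that the headers do not name; it was read from the group means.

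Log2(normalized count + 1) of 7 libraries in 3 groups was fitted in 1 model with limma 3.58.1 in R 4.3.3, with Benjamini–Hochberg adjustment over 5898 regions at 0.05. The SE of a log2 change is limma's. Planned count tests were not run, because whole reads could not be established in each table by itself. The fit was tested on simulated data, with 200 regions changed in HFD libraries, a dispersion of 0.02 and known size factors. There 86% of increases and 88% of decreases of 1 and 100% of changes of 2 on the log2 scale were found. Calls were made at 14 of 5698 unchanged regions. The simulation does not measure errors where most regions change, nor those from scaling or from the selection of regions.

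Genes were named by rule. The 12 largest increases and decreases, 1 region per gene with a symbol, were taken among called regions whose groups do not overlap. The others were 16 genes with many regions and genes from among the largest changes of each family, place, distance class and marker list. The genes shown for a family are examples and not always those of its largest increase or decrease. Gene starts with large changes were also named. Other genes with strong signal, and stretches of regions, were chosen after their values were seen; a few such genes are not reported here. The members, 25 families (by symbol pattern, kept to protein-coding genes except for microRNA and predicted genes after a first look) and all lists were chosen with earlier results of these data known. Of 3815 assigned genes 3812 matched RefSeq by identifier; 5 symbols that had turned into dates were restored from it. Alternatives covered the pseudocount, a minimum mean, scaling, samples left out, a replicate block and the variance prior. Deviations of same-numbered libraries correlated at 0.06 and 0.02, so the numbers were not taken as pairs.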

Additional observations from a re-analysis of the deposited data

How the results depend on the processing

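No region called higher was called lower under any alternative run, or the reverse. Counts moved by over 1.5 times under 2 settings. With TMM factors 830 regions were higher (and 2095 lower), and with a log2 change of at least 1 also required 2177 were higher and 707 lower. Leaving out 1 library in turn gave 2999 to 3359 higher and 1417 to 1627 lower regions, fewest without RD-RD replicate 1. With the replicate block, in numbers that do not pair the libraries, 3278 were higher and 1597 lower. Equal totals per library gave 3537 and 1669, and without the largest region 3307 and 1831. With totals taken outside contigs and chromosome beginnings, a setting chosen after seeing the data, 2787 were higher and 1948 lower, and the median moved by -0.31. With TMM factors 629 of the 3490 higher regions had a change below 0, none of them called lower, and no lower region had one above 0. Among the regions recomputed singly these included Nr3c1 (-0.053) and the weakest of Abhd17c (-0.23), Lhfpl2 (-0.42) and Camk2d (-0.46), and TMM shifts all regions by construction. Pseudocounts of 0.5 and 5, a minimum mean of 50, the 5 libraries alone, the robust and trended priors and the regions without contigs, chromosome beginnings and Y stayed within 1.5 times. The edgeR and DESeq2 tests planned on recovered reads were not run. Depth, at a median of 71 to 75 reads per region in RD-RD libraries, and 2 RD-RD libraries limit precision.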

Other observations

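Of the 16 regions with the strongest signal, leaving out contigs and chromosome beginnings, 8 were higher in HFD, 7 lower and 1 did not pass. The region upstream of Hilpda, a lipid droplet protein gene induced by hypoxia, had 3745, 3674 and 4381 normalized counts in HFD libraries, against 1424 and 2115 in RD-RD libraries. Its RD-RD libraries lay apart, but neither reached the HFD libraries (1.18 ± 0.21). A region inside Cd36, the fatty acid uptake receptor gene, had 1715, 1540.2 and 1747 normalized counts in HFD libraries, against 866 and 829 in RD-RD libraries (0.97 ± 0.18), with no overlap between the groups. Fam20c, a kinase gene of secreted proteins, had 2404, 2452 and 2711 in HFD libraries, against 1041 and 1158 in RD-RD libraries (1.197 ± 0.18). With TMM factors none of these was called (0.38 at Hilpda, 0.18 at Cd36 and 0.40 at Fam20c). Among the lower ones, Smok4a, a sperm motility kinase gene, had 1438, 1516 and 1659 in HFD libraries, against 5501 and 4133 in RD-RD libraries (-1.63 ± 0.24), Thrb, the gene of a thyroid hormone receptor, was at -0.70 at its start and 4930583P06Rik at -0.62.

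Among regions assigned to microRNA genes, those near Mir122 and Mir23b rose by 1.89 and 1.87, and those near Mir6414, Mir684-1 and Mir5099 were at -1.81, -1.75 and -1.72. The region near Mir6414 had 40.6, 32.1 and 48.1 normalized counts in HFD libraries, against 153 and 131 in RD-RD libraries, and lay within 1 kb of that gene. The 6 regions of the Mir122 stretch other than the named one were higher as well (0.77 to 1.89 over all 7), at 62.0 kb upstream of the gene for the strongest.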
